A study of Mus musculus with 6 samples.

Results

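Erythropoietin (Epo) receptor signalling was followed through 10 genes: the receptor Epor, its kinase Jak2, the transcription factors Stat5a and Stat5b, the feedback inhibitors Cish, Socs2, Socs3 and Sh2b3, and the downstream genes Pim1 and Erfe, of which Erfe was formerly called Fam132b. They were picked by gene symbol from the 17463 genes of the count table, as a set proposed with earlier results of these data known. All 10 were in the table, and all 10 passed the filter on low counts together with 11267 other genes. RNA was sequenced from C57BL/6J mouse fetal liver erythroblasts, which were TER119-negative when purified and were cultured in Epo-containing medium. The study's methods add that TER119-positive cells were sorted after the culture, and TER119 is a surface antigen that erythroid cells gain as they mature. The control group held 3 samples that the labels call untreated and the study calls vehicle controls, and the cholesterol group held 3 samples kept with 40 µM cholesterol for 30 h. Both groups were in Epo throughout, so the comparison addresses how added cholesterol affected these transcripts under a standing Epo stimulus and does not include cells without Epo. Nothing in the labels says that the samples came from separate cultures or animals, so p-values measure only the spread between these samples, which may be technical. The legend of the study's figure that includes this RNA-seq gives means and SD from 3 independent experiments. It does not say whether the RNA-seq samples were among them.

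Epo binds a receptor that has no kinase activity of its own and relies on JAK2 bound to its cytoplasmic tail. On ligand binding JAK2 phosphorylates the receptor, STAT5 docks there, is phosphorylated in turn and enters the nucleus, where it activates genes for survival and growth as well as genes that switch the receptor off. CIS (encoded by Cish) and the SOCS proteins compete for docking sites or inhibit JAK2, and LNK (encoded by Sh2b3) binds JAK2 and dampens it. Most of this regulation acts on proteins and their phosphorylation, which RNA-seq does not measure.

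All 10 genes were expressed, and 0 of 10 were called higher or lower with cholesterol at an adjusted p under 0.05 by edgeR's quasi-likelihood test, both in the model of condition alone and in one that added the labels' replicate number as a block. Over all genes tested, 0.00887% were called with condition alone (1 gene, Abcg1) and 6.85% with the block, so a count of 0 among 10 genes was near the background. With condition alone, 1 member and 2.63% of all genes had an unadjusted p under 0.05. DESeq2 and limma also called 0 members. The median log2 fold change of the members was −0.02, beside 0.01 for all genes tested. The largest differences in mean level were higher values of Stat5a and Stat5b and lower values of Epor and Cish, at most 0.30 on the log2 scale (Stat5a). By replicate number, 6 of the 10 members differed at an adjusted p under 0.05, where 46.3% of all genes did.

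Total counts lay between 19826797 and 20061702 per sample, a floor of 3 counts was about 0.15 CPM (counts divided by library size, so that samples can be compared), and the members had between 140 and 17649 counts in a sample, so depth did not limit their detection. The label of the cells was checked against 10 erythroid markers, all of which were expressed, with summed levels of 85123 to 108153 CPM in control and 73502 to 102418 CPM with cholesterol. All 10 had lower mean levels with cholesterol, and 9 of them were lower in 3 of 3 pairs, as were 20.1% of all genes. At an adjusted p under 0.05, edgeR called 0 of them by treatment with condition alone in the model (median log2 fold change −0.08), 2 lower with the replicate number added as a block (Tfrc and Alas2), and 9 by replicate number. The 20 tested markers of neutrophils, macrophages, mast cells and basophils differed by replicate number, as did 2 of 7 megakaryocyte markers. No lymphoid marker passed the filter on low counts. The 9 neutrophil markers, all detected, summed to 70.4, 253 and 674 CPM in controls 1 to 3 and to 40.5, 110 and 281 CPM in cholesterol samples 1 to 3. The 9 macrophage markers, all detected, summed to 18.7 to 130.2 CPM in control and 13.2 to 58.4 CPM with cholesterol, and the 7 mast cell and basophil markers, of which Tpsb2 had no counts and Mcpt4 was not analysed here, to 7.68 to 30.8 and 2.86 to 5.42 CPM. Samples numbered 3 had the highest sums in both groups for all 3 lists. The 6 lymphoid markers, of which Ms4a1 had no counts and Cd3e was not analysed here, summed to at most 4.52 CPM. The 5 hepatoblast markers, all detected, summed to 97.8 to 284 CPM in control and 67.9 to 242 CPM with cholesterol, and the 7 megakaryocyte markers, all detected, to 84.3 to 98.8 and 80.2 to 90.4 CPM. In such bulk samples, fewer cells of a type and less RNA per cell cannot be told apart.

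STAT5 binds palindromes of the letters TTCNNNGAA. GATA1, the erythroid master factor, binds GATA motifs, of which only AGATAA and its other strand TTATCT were searched here, called the GATA letters below. RefSeq promoter windows of GRCm38.p6, from 250 bases before to 50 bases after an annotated start, matched 9 of the 10 members (12 windows, all but Socs2). The TTCNNNGAA letters stood in windows of 2 members, Cish and Socs3, and the GATA letters in that of 1, Epor. Over all 32851 windows of this length, 8.30% held TTCNNNGAA, 0.457% held it at least 2 times, and 11.2% held the GATA letters on either strand. No member held both kinds of match, so none of the matches overlapped between them. The 3 stretches are shown because they put the members' transcripts beside the factors of the pathway; each has 250 bases before the start and 20 from it, 5′ to 3′ on the gene's strand, with the matched letters in capitals.
Epor, chr9:21963557-21963826, minus strand: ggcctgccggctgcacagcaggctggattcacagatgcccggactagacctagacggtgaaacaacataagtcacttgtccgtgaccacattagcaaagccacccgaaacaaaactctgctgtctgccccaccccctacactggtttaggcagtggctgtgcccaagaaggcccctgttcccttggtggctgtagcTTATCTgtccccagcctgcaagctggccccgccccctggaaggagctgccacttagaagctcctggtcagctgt
Cish, chr9:107296409-107296678, plus strand: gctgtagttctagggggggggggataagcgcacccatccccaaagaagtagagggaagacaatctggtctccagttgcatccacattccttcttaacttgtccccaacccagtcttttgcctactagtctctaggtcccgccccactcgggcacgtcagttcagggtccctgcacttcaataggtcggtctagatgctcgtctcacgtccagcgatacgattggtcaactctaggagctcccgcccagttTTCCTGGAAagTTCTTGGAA
Socs3, chr11:117969347-117969616, minus strand: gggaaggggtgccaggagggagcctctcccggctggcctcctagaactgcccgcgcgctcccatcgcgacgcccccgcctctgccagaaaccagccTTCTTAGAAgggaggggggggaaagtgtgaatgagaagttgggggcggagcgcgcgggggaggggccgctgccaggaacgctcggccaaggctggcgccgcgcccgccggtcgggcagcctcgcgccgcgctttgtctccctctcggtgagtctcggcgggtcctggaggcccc
In Cish the 2 matches TTCCTGGAA and TTCTTGGAA began at positions 1 and 12 of the annotated transcript, side by side. In Epor TTATCT began 54 bases before the annotated start. In Socs3 TTCTTAGAA began 154 bases before the annotated start used for its window. That Socs3 start, and the whole stretch shown, lie inside the gene interval chr11:117966079-117970336 on the minus strand, downstream of its 5′ end. A match is a description of the letters, not of binding, and no binding was measured in these samples.

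The levels of the members, compared per transcript length as the authors' FPKM values (read counts scaled for transcript length and sequencing depth), spanned a wide range. Pim1 was highest with a mean of 427 FPKM over the 6 samples, above 99.0% of the genes with any count. Epor followed with 165 FPKM, Cish with 91.6 and Erfe with 64.3. A middle group held Jak2 with 24.0 FPKM, Socs3 with 20.5 and Stat5b with 11.9. Sh2b3 with 8.55 FPKM, Socs2 with 7.03 and Stat5a with 2.69 were lowest, and Stat5a still stood above 53.7% of the genes with any count. For each pair of neighbours in this order the ranges over the 6 samples did not overlap, most narrowly for Sh2b3, whose lowest value was 8.13 FPKM, and Socs2, whose highest was 8.12.

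**Figure D1:**
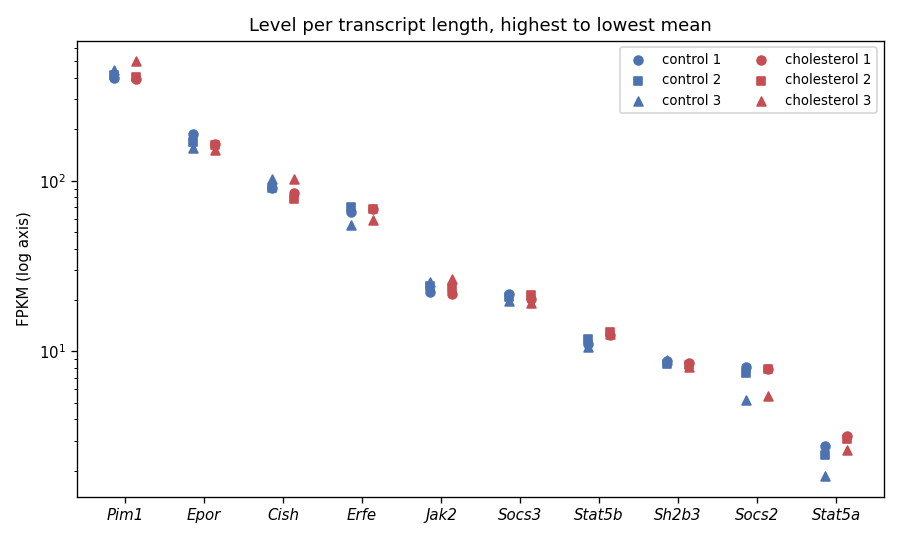
The authors' FPKM values of the 10 members on a log axis, ordered from the highest to the lowest mean, with 1 point for each of the 3 control samples (blue) and 3 cholesterol samples (red) and the symbol giving the replicate number. Pim1 lies between 393 and 501 FPKM and Stat5a between 1.87 and 3.22, and the control and cholesterol points of a gene lie close together.

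Epor (chr9:21958897-21963576, minus strand) encodes the receptor itself. Its level after TMM normalization was 316, 280.1 and 275 CPM in controls 1 to 3 and 270.2, 269 and 263 CPM in cholesterol samples 1 to 3. All 3 cholesterol values lay below all 3 control values, and the highest control value, in sample 1, stood apart from the other five. The mean was 290.3 ± 22.1 CPM (SD, n = 3) in control and 267 ± 4.06 CPM (SD, n = 3) with cholesterol, a difference of −7.98%. The log2 fold change was −0.12 (standard error 0.07, 95% interval −0.29 to 0.05, adjusted p = 0.9998). Within same-numbered pairs 1 to 3 the log2 difference was −0.22, −0.06 and −0.07, and with the block the interval was −0.21 to −0.02 (adjusted p = 0.129). Without control 1 the log2 fold change was −0.05, and without both samples numbered 3, in the model with the block, it was −0.14 with an adjusted p of 0.0347, past the threshold. Of the 10 members, Epor was the one whose cholesterol samples all lay below the controls, as they did for 4.28% of all genes.

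Jak2 (chr19:29251803-29313095, plus strand) encodes the kinase that the receptor carries. It stood at 107, 114 and 124 CPM in controls 1 to 3 and at 101, 110.0 and 128 CPM in cholesterol samples 1 to 3. The groups overlapped, and both samples numbered 3 lay above the other 4. The mean was 115 ± 8.43 CPM in control and 113 ± 13.6 CPM with cholesterol (SD, n = 3 in each), a log2 fold change of −0.02 (95% interval −0.28 to 0.23). With the block the interval narrowed to −0.12 to 0.07.

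Stat5a (chr11:100859351-100885169, plus strand) and Stat5b (chr11:100780731-100859004, minus strand) are neighbours that encode closely related transcription factors activated by JAK2. Stat5a, the lower of the pair, stood at 10.7, 9.26 and 7.27 CPM in controls 1 to 3 and at 12.1, 11.3 and 10.1 CPM in cholesterol samples 1 to 3. It was higher with cholesterol in each same-numbered pair, while the groups overlapped, since control 1 lay above cholesterol 3. The mean was 9.08 ± 1.73 CPM in control and 11.2 ± 0.985 CPM with cholesterol (SD, n = 3 in each), a difference of 23.0%. The log2 fold change was 0.30 (standard error 0.17, 95% interval −0.11 to 0.71, adjusted p = 0.9998), and with the block it was 0.30 (standard error 0.10, 95% interval 0.09 to 0.52, adjusted p = 0.0873). The pair differences were 0.17, 0.29 and 0.47 on the log2 scale. With condition alone the log2 fold change of Stat5a was 0.16 without control 3 and 0.44 without control 1.

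Stat5b varied little within each group. It stood at 58.1, 60.3 and 56.9 CPM in controls 1 to 3 and at 63.7, 65.4 and 66.1 CPM in cholesterol samples 1 to 3, so that every cholesterol sample was above every control, in 1 of the 10 members and 3.72% of all genes. The mean was 58.4 ± 1.72 CPM in control and 65.1 ± 1.23 CPM with cholesterol (SD, n = 3 in each), a difference of 11.3%. The log2 fold change was 0.15 (standard error 0.06, 95% interval 0.01 to 0.30), with an unadjusted p of 0.0385 and an adjusted p of 0.9998 in edgeR's test. With the block the adjusted p was 0.0758, and the pair differences were 0.13, 0.12 and 0.22. With the block and no filter on low counts Stat5b passed the threshold (adjusted p = 0.0432). Stat5b was the one member whose interval with condition alone did not include 0.

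Taken per transcript length, Stat5b exceeded Stat5a by 3.88 to 5.71 times in every sample. The summed Stat5 level was 13.8, 14.3 and 12.6 FPKM in controls 1 to 3 and 15.7, 16.0 and 15.3 FPKM in cholesterol samples 1 to 3. The groups of sums did not overlap, and each cholesterol sample lay above its same-numbered control. This sum was formed after the values of both genes were known and has no test. In FPKM both genes were higher with cholesterol in each same-numbered pair. The order of the sums within pairs followed from that and adds nothing to it. Of the 50-base stretches of 1 annotated transcript of each, 16.4% in Stat5a also occurred in transcripts of Stat5b or Stat3 and 11.8% in Stat5b in those of Stat5a, so how reads were shared out could move the split between them.

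**Figure D2:**
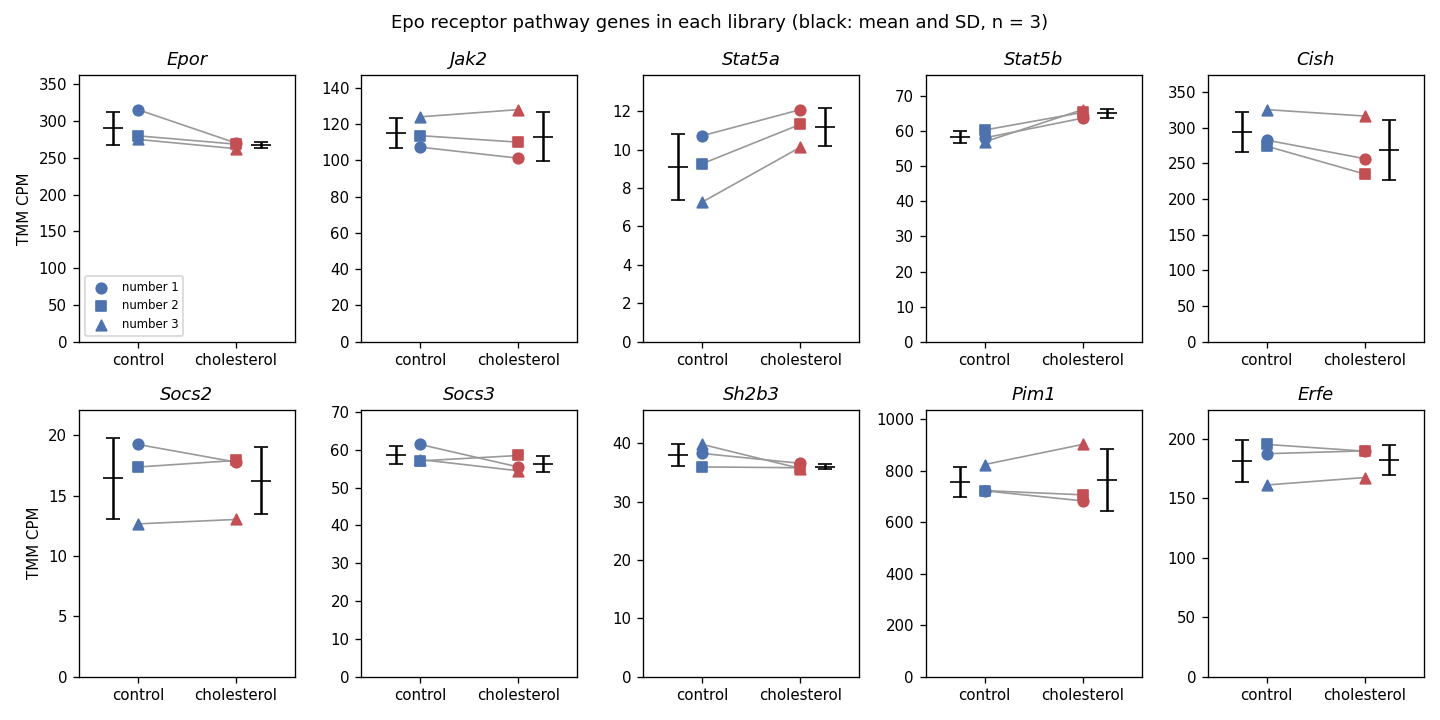
TMM-normalized CPM of each member in the 3 control samples (blue) and 3 cholesterol samples (red), each panel with its own axis from 0. Grey lines join samples with the same replicate number, and black bars give the mean and SD (n = 3). Stat5b is higher and Epor lower at the cholesterol end of all 3 lines, with groups that do not overlap. In Jak2, Cish, Socs2, Pim1 and Erfe the number 3 samples of both groups stand apart from the others.

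Cish (chr9:107296659-107302784, plus strand), with the pair of TTCNNNGAA letters at its start, encodes the inhibitor CIS and is a classic STAT5 target. It stood at 282, 274 and 325 CPM in controls 1 to 3 and at 256, 235 and 316 CPM in cholesterol samples 1 to 3. The groups overlapped because both samples numbered 3 were high, but each cholesterol sample lay below its same-numbered control. The mean was 294 ± 27.5 CPM in control and 269 ± 42.1 CPM with cholesterol (SD, n = 3 in each). The log2 fold change was −0.13 (standard error 0.13, 95% interval −0.44 to 0.19, adjusted p = 0.9998). It was −0.05 without control 3, −0.04 without cholesterol 2 and −0.26 without cholesterol 3. With the block it was −0.13 (standard error 0.04, 95% interval −0.23 to −0.04, adjusted p = 0.0802), from pair differences of −0.14, −0.22 and −0.04. Without both samples numbered 3 the blocked log2 fold change was −0.18, past the threshold (adjusted p = 0.0037). Cish and Epor were the 2 members called in that setting, in which 4.64% of all genes tested were called lower. Cish also passed the threshold with the block and no filter on low counts (adjusted p = 0.0485).

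Socs2 (chr10:95383903-95417321, minus strand) encodes a further SOCS protein, best known as a brake on growth hormone signalling. It stood at 19.3, 17.4 and 12.7 CPM in controls 1 to 3 and at 17.8, 17.9 and 13.04 CPM in cholesterol samples 1 to 3, so that both samples numbered 3 were low and the groups overlapped. The log2 fold change was −0.02 (standard error 0.20, 95% interval −0.50 to 0.47), the widest of the 10, and with the block it was −0.01 (95% interval −0.18 to 0.15). Socs3 (chr11:117966079-117970336, minus strand), which encodes a direct inhibitor of JAK kinases, stood at 61.5, 57.1 and 57.5 CPM in controls 1 to 3 and at 55.5, 58.5 and 54.5 CPM in cholesterol samples 1 to 3. These groups overlapped too, with a log2 fold change of −0.06 (95% interval −0.22 to 0.10).

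Sh2b3 (chr5:121815481-121837645, minus strand), which encodes the adaptor LNK, varied little. It stood at 38.3, 36.0 and 39.8 CPM in controls 1 to 3 and at 36.6, 35.8 and 35.7 CPM in cholesterol samples 1 to 3. Each cholesterol sample lay below its same-numbered control, in pair 2 by no more than 0.01 on the log2 scale, and the groups overlapped. The log2 fold change was −0.08 (95% interval −0.24 to 0.09), and −0.08 with the block (95% interval −0.20 to 0.05, adjusted p = 0.532). In all, 3 members were lower in 3 of 3 pairs (Epor, Cish and Sh2b3) and 2 were higher (Stat5a and Stat5b), where 20.1% and 19.9% of all genes were.

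Pim1 (chr17:29490785-29496111, plus strand) encodes a serine/threonine kinase that STAT5 induces and that favours survival. It stood at 722, 723 and 824 CPM in controls 1 to 3 and at 683, 706 and 902 CPM in cholesterol samples 1 to 3, with both samples numbered 3 above the other 4. The mean was 756 ± 58.6 CPM in control and 764 ± 121 CPM with cholesterol (SD, n = 3 in each), a log2 fold change of 0.01 (95% interval −0.29 to 0.32); with the block the interval was −0.09 to 0.10. Erfe (chr1:91366305-91374217, plus strand) encodes erythroferrone, a hormone through which erythroblasts lower hepcidin and raise the iron supply, and is induced by Epo through STAT5. It stood at 187, 195 and 161 CPM in controls 1 to 3 and at 189.7, 189 and 167 CPM in cholesterol samples 1 to 3. Here both samples numbered 3 were the lowest, and the log2 fold change was 0.01 (95% interval −0.22 to 0.24, and −0.08 to 0.10 with the block).

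**Figure D3:**
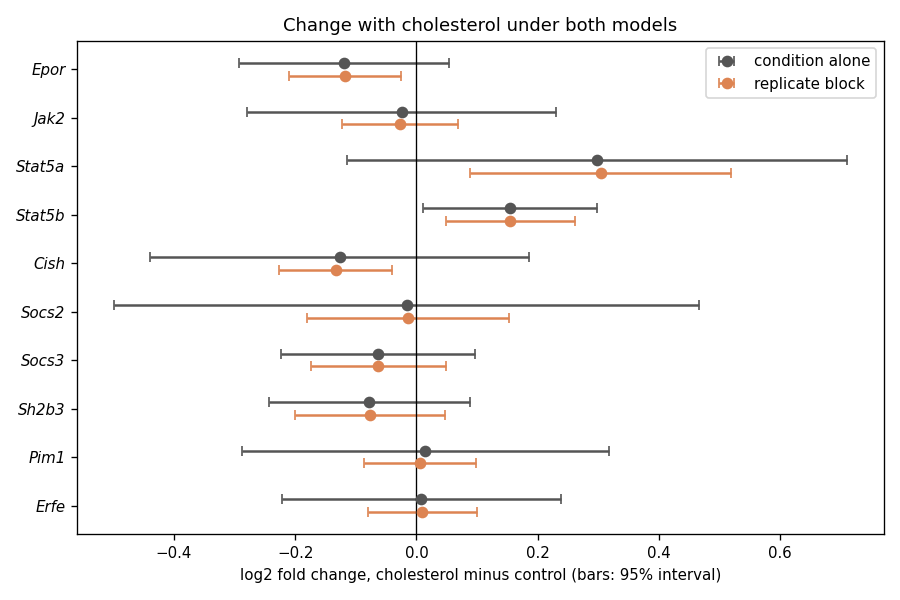
Log2 fold change of each member, cholesterol minus control, with its 95% interval, in edgeR's model with condition alone (grey) and in that with the replicate block (orange). Intervals with condition alone reach from −0.50 to 0.71 at their extremes and include 0 for 9 of 10 members, and with the block they reach from −0.23 to 0.52 and include 0 for 6 of 10.

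With condition alone no member's interval reached beyond −0.50 or 0.71 on the log2 scale, and with the block none reached beyond −0.23 or 0.52. An adjusted p above 0.05 does not show that a member was unaltered. With the block, 4 members had an unadjusted p under 0.05 (Epor, Stat5a, Stat5b and Cish), beside 19.6% of all genes.

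In the test of the replicate numbers, with condition kept in the model, 6 of 10 members passed an adjusted p of 0.05, where 46.3% of all genes did, so the share was no finding about these genes. Of the 10, 3 were called with the samples numbered 3 above those numbered 1, beside 23.4% of all genes. Pim1 was higher in the samples numbered 3 than in those numbered 1 by 0.30 on the log2 scale (adjusted p = 0.000209), Jak2 by 0.27 (adjusted p = 0.00164) and Cish by 0.25 (adjusted p = 0.000105). In the opposite direction, Socs2 differed by −0.53 (adjusted p = 0.000446), Stat5a by −0.40 (adjusted p = 0.0418) and Erfe by −0.20 (adjusted p = 0.00271). The call of Stat5a held under 5 of 14 alternatives, with adjusted p from 0.0154 to 0.478, and those of the other five under all 14. Epor, Stat5b, Socs3 and Sh2b3 had no call in this test, with log2 differences of −0.12, 0.01, −0.06 and 0.01. Epor was called under 1 of the 14 alternatives, and Stat5b, Socs3 and Sh2b3 under 0.

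Both samples numbered 3 lay beyond the other 4 for 5 of 10 members (Jak2, Cish and Pim1 above, Socs2 and Erfe below), beside 53.4% of all genes. The ratio of Pim1 to Epor in FPKM was 2.13, 2.44 and 2.88 in controls 1 to 3 and 2.40, 2.49 and 3.32 in cholesterol samples 1 to 3, highest in the number 3 sample of each group. When samples 1 and 2 of each group were compared without the samples numbered 3, 0 of 10 members differed by number in edgeR's test, beside 14.9% of all genes tested there (1658 genes). The neutrophil markers given above were also highest in the samples numbered 3, and all 20 tested markers of neutrophils, macrophages, mast cells and basophils differed by replicate number. Their part in the members' differences was not tested. The labels do not say what the numbers stand for, so culture, sort and library cannot be told apart.

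**Figure D4:**
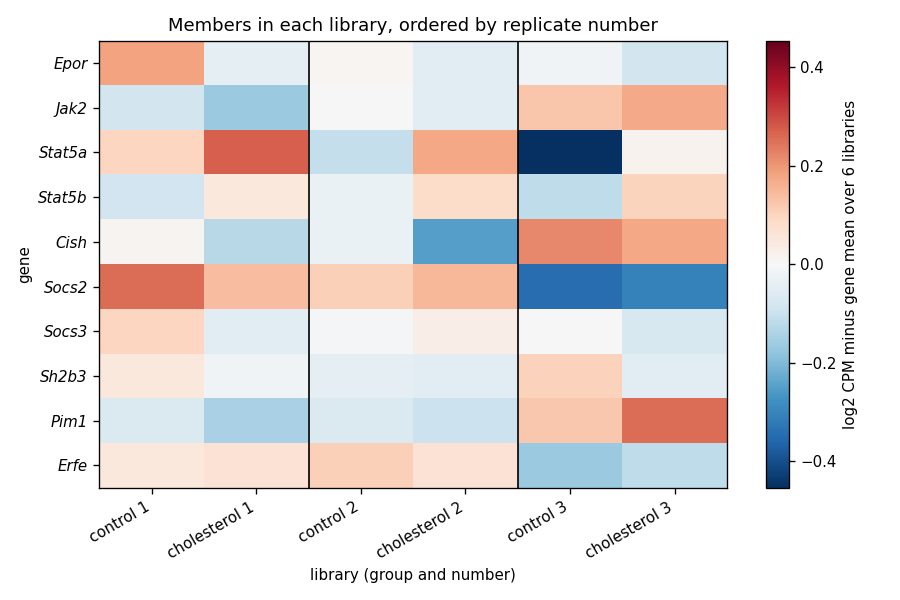
Log2 CPM of each member minus its mean over the 6 samples, by color, with the samples ordered by replicate number and the groups side by side within a number. Jak2, Cish and Pim1 are red and Socs2 and Erfe blue in both samples numbered 3, whereas Stat5a is lowest in control 3 (−0.45) and highest in cholesterol 1 (0.27).

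The other genes of the pathway were taken from 5 lists with 83 genes, of which 78 passed the filter on low counts. With condition alone 0 of the 78 were called by edgeR, 0 pathway genes were called by DESeq2 or limma, and 2 had an unadjusted p under 0.05 (Pik3cd and Kit, both lower with cholesterol). With the block, 2 were called higher and 10 lower, beside 1.65% and 5.20% of all genes tested. The 10 lower calls became 3 without both samples numbered 2, where the count over all genes went from 586 to 229, 15 without those numbered 1 (703 over all genes), 6 in DESeq2 with the block (248) and 15 with the block and no filter (829). Higher calls numbered 1 without both samples numbered 1, 1 without those numbered 3 and 1 in DESeq2 with the block. They stayed at 2 without the samples numbered 2 and with no filter. By replicate number 39 of the 78 differed, a share near the 46.3% of all genes that did.

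Among the 23 tested receptor-proximal kinases, phosphatases and adaptors, 1 rose and 5 fell with the block, and the list had a median log2 fold change of −0.02. In the blocked edgeR fit, the 5 lower calls became 2 when both samples numbered 2 were left out and 7 with no filter on low counts. DESeq2 with the block, on all 6 samples, gave 3. Irs2, an adaptor that couples receptors to PI3 kinase, stood at 61.7, 57.6 and 41.9 CPM in controls 1 to 3 and at 75.1, 70.2 and 59.4 CPM in cholesterol samples 1 to 3. It was higher in every pair, with overlapping groups (blocked log2 fold change 0.35, adjusted p = 0.000422). The genes that fell were Plcg2, which encodes a phospholipase (−1.11, adjusted p = 0.000109), the exchange factor gene Vav1 (−0.82, adjusted p = 0.00122), the Src-family kinase gene Lyn (−0.69, adjusted p = 0.00709), and the PI3 kinase subunit genes Pik3cd (−1.03, adjusted p = 0.00789) and Pik3r1 (−0.19, adjusted p = 0.044). Plcg2, for example, was at 4.45, 5.74 and 16.5 CPM in controls 1 to 3 and at 2.12, 3.51 and 6.24 CPM in cholesterol samples 1 to 3, highest in the number 3 sample of each group. Plcg2, Vav1, Lyn and Pik3cd are also known from myeloid and lymphoid cells, and with the block 17 of 20 tested neutrophil, macrophage and mast cell markers fell as well (0 of 20 with condition alone). Their part in these differences was not tested. Ptpn6, whose product SHP-1 dephosphorylates JAK2, was at 4.80, 7.58 and 22.6 CPM in controls 1 to 3 and at 4.98, 5.43 and 11.5 CPM in cholesterol samples 1 to 3 and had no call (blocked adjusted p = 0.103).

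No call was made among the 16 tested other JAKs, STATs, SOCS and PIAS or among the 13 genes of the ERK and AKT branches with either model, and their medians were 0.05 and −0.03. In the first of these lists 1 lower call appeared with the block when both samples numbered 3 were left out, and 1 with the block and no filter. Stat2, which acts in interferon signalling, stood at 46.2, 68.7 and 139 CPM in controls 1 to 3 and at 41.4, 54.9 and 134 CPM in cholesterol samples 1 to 3. It differed between the numbers 3 and 1 by 1.64 on the log2 scale (adjusted p = 1.4e-12). With cholesterol the blocked log2 fold change of Stat2 was −0.17 (adjusted p = 0.0758). Jak3, a kinase gene best known from lymphoid cells, had the smallest p of its list with condition alone and stood at 10.8, 10.4 and 10.7 CPM in controls 1 to 3 and at 8.28, 9.34 and 10.2 CPM in cholesterol samples 1 to 3, with groups that did not overlap and a blocked adjusted p of 0.289. In the ERK and AKT branches the smallest p with the block belonged to Mapk3, which encodes ERK1 (blocked log2 fold change −0.12, adjusted p = 0.227). Akt1, a kinase downstream of PI3 kinase, differed by −0.76 between the numbers 3 and 1 (adjusted p = 1.2e-08).

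Of the 12 tested other genes induced by Epo or STAT5, 1 rose and 1 fell with the block, with a list median of −0.05. Without both samples numbered 2 the lower calls were 0, and without those numbered 1 they were 2. Tfrc, the transferrin receptor gene through which erythroblasts take up iron, stood at 3011, 3164 and 2683 CPM in controls 1 to 3 and at 2654, 2789.8 and 2482 CPM in cholesterol samples 1 to 3. It was lower in every pair, with overlapping groups (blocked log2 fold change −0.16, adjusted p = 0.0153). Tfrc is also among the 10 erythroid markers, all of which had lower means with cholesterol, and their part in its difference was not tested. Podxl, a sialomucin gene that Epo induces, stood at 71.4, 63.8 and 30.7 CPM in controls 1 to 3 and at 82.8, 67.0 and 41.6 CPM in cholesterol samples 1 to 3, higher in every pair (0.23, adjusted p = 0.0393). The groups of the survival gene Mcl1 did not overlap, at 179, 180.1 and 193 CPM in controls 1 to 3 and at 174, 177 and 179 CPM in cholesterol samples 1 to 3, without a call (−0.06, adjusted p = 0.495). The related gene Bcl2l1, which encodes BCL-XL, was at 126, 134 and 210.1 CPM in control and at 111, 125 and 219 CPM with cholesterol in samples 1 to 3, with no call by treatment and a log2 difference of 0.86 between the numbers 3 and 1 (adjusted p = 1.28e-09).

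All 14 tested other cytokine receptor genes had lower means with cholesterol, and 4 fell with the block (Kit, Csf2rb, Csf2rb2 and Ifngr1), with a list median of −0.59 under condition alone. Over all genes tested, 47.9% were lower with cholesterol and 5.20% were called lower with the block. The 17 of 20 neutrophil, macrophage and mast cell markers that fell with the block moved the same way, and their part in this list's difference was not tested. The 4 calls became 8 without both samples numbered 1, 1 without those numbered 2, 3 without those numbered 3, 2 in DESeq2 with the block and 6 with the block and no filter on low counts. Kit, the receptor for stem cell factor on erythroid progenitors and mast cells, stood at 2.58, 2.82 and 3.48 CPM in controls 1 to 3 and at 1.97, 1.38 and 1.02 CPM in cholesterol samples 1 to 3. Its groups did not overlap (blocked log2 fold change −1.02, adjusted p = 0.0255). Csf2rb, the beta chain shared by receptors for myeloid cytokines, stood at 7.23, 18.4 and 51.8 CPM in controls 1 to 3 and at 5.32, 9.19 and 22.1 CPM in cholesterol samples 1 to 3, the same order over the replicate numbers as the summed neutrophil markers (blocked log2 fold change −1.004, adjusted p = 0.000842).

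**Figure D5:**
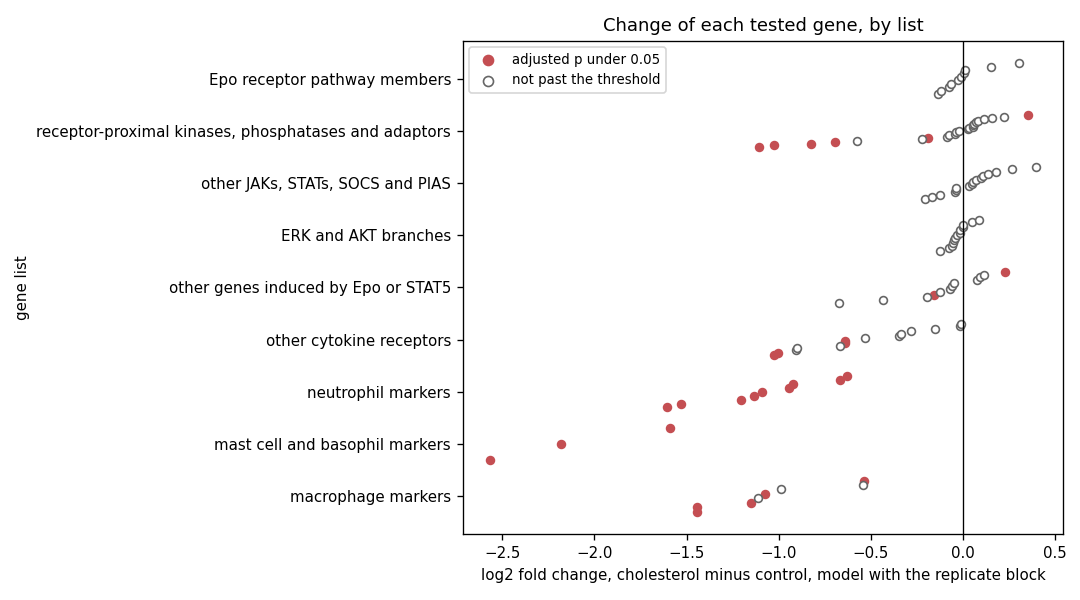
Log2 fold change, cholesterol minus control, of every tested gene of the members, 5 pathway lists and 3 myeloid marker lists in edgeR's model with the replicate block, 1 point for each gene, filled red at an adjusted p under 0.05 and open otherwise. The 10 members lie between −0.13 and 0.30 with no red point, while 17 of the 20 myeloid markers are red and all 20 lie below 0.

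For the 3 members that varied most over the 6 samples, the genes with the most similar pattern were sought by the root mean square difference of mean-centred log2 CPM among 10413 genes. For Stat5a these were Rab23 (0.05), Dusp28 (0.05) and Irs2 (0.05), and Irs2 is the adaptor gene described above. For Socs2 they were Abce1 (0.02) and Cars2 (0.03), and for Cish they were Ublcp1 (0.03), Pqlc2 (0.03) and Esyt1 (0.03). With 6 samples and this many candidates, such likeness is a description only.

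Reads of several members could be shared with other genes. Of the 50-base stretches of the transcripts, 18.4% in Socs2 occurred also in Gm8000 or Gm9847, 15.8% in Cish in Gm17040 or Gm17041, 10.6% in Pim1 in Gm26885, 11.1% in Erfe in Ilkap on the opposite strand, and 0.386% in Sh2b3 in Atxn2. The Cish and Pim1 partners lie antisense to them, and the library protocol names no strand marking, so reads from either strand cannot be told apart. In Epor, Jak2 and Socs3 the share was 0.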

How the data were processed

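Per the labels, TRIzol RNA was enriched with oligo(dT) beads and read as single 50-base reads on a DNBSEQ instrument. The authors deposited expected counts per gene (27.9% to 29.5% of values in a sample were not whole) and a table of normalized values without a named unit, taken as FPKM because counts and values together gave lengths close to annotated transcripts. The submitters' processing notes name HISAT2 2.0.4, Bowtie2 2.2.5, RSEM 1.2.12, DESeq2 1.4.5 and GRCm38.p6 without roles. The annotation and filters were not given in the sources used here.

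The expected counts were rounded and tested in R 4.3.3 with edgeR 4.0.16: filterByExpr (minimum count 10, minimum total 15), TMM, the robust quasi-likelihood test and Benjamini-Hochberg adjustment over 11277 genes at a threshold of 0.05. The planned model held condition alone. Replicate numbers 1 to 3 occur in both groups of the labels. Across genes, the samples that share a number deviated from their groups together (correlations of 0.729, 0.348 and 0.825). Control 1 and cholesterol 2 also deviated together (0.346), as did control 2 and cholesterol 1 (0.118), and the other 4 pairs of unlike number were negative (−0.795 to −0.289). As each same-number correlation was above 0.1, the numbers were taken to pair the samples and a model with the number as a block was also fitted. The pairs of control 1 with cholesterol 2 and of control 2 with cholesterol 1 were above 0.1 too. This rule alone therefore did not set number 1 apart from number 2. No 2 samples were copies of each other (chi-square per degree of freedom at least 8.20). Standard errors were derived from the F statistic. Groups of 3 allow an exact permutation test no p below 0.1, so none was used for single genes.

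The alternatives were DESeq2 1.42.0, other size factors, totals alone, globin genes left out, other filters, limma 3.58.1 on log2(FPKM + 1) and log2(FPKM + 0.1), and left-out samples. The methods were tested on simulated data. The members and the gene lists were chosen with earlier results of these data known. Named genes were all 10 members, up to 5 genes per pathway list with the smallest p in either model (of which a selection is described), and the 3 genes most like each of the 3 most variable members. A few genes that this rule names are not reported here. Akt1, Ptpn6, Pik3r1, Mcl1 and Bcl2l1 were added with their values in view. Promoter windows and gene positions came from RefSeq, and transcripts and overlapping genes from the GENCODE annotation of GRCm38.p6.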

Additional observations from a re-analysis of the deposited data

How the results depend on the processing

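Epor, Cish, Socs3 and Sh2b3 were lower and Stat5a and Stat5b higher with cholesterol under all 20 alternatives, with values that moved: the log2 fold change ranged from −0.16 to −0.05 for Epor, −0.26 to −0.04 for Cish, −0.11 to −0.02 for Socs3, −0.11 to −0.04 for Sh2b3, 0.16 to 0.44 for Stat5a and 0.12 to 0.18 for Stat5b. The other 4 members had values near 0 that changed sign without a call. With library totals alone, Jak2 was 0.0048 and Socs2 0.014 on the log2 scale, and in limma Socs2 was 0.036 and 0.042 with pseudocounts of 1 and 0.1. With each sample left out in turn, Jak2 ranged from −0.12 to 0.050, Socs2 from −0.17 to 0.12, Pim1 from −0.12 to 0.089 and Erfe from −0.070 to 0.068. With the replicate block and a replicate number left out, Jak2 ranged from −0.067 to 0.0024, Socs2 from −0.042 to 0.046, Pim1 from −0.059 to 0.052 and Erfe from −0.014 to 0.037.

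The members called were 0 in each direction with these exceptions: 2 lower (Epor and Cish) with the block and without both samples numbered 3, and 1 higher (Stat5b, adjusted p = 0.0432) and 1 lower (Cish, adjusted p = 0.0485) with the block and no filter on low counts, which was added with the data in view. The cause was not tested.

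Over all genes, 1 was higher and 0 lower with condition alone, 3 and 28 in DESeq2, 186 and 586 with the replicate block, 41 and 248 in DESeq2 with the block (also added later), and 368 and 829 with the block and no filter. With 1 sample left out, 1 gene was higher and 0 to 7 were lower, most without control 3, and with the block 118 were higher and 703 lower without number 1, 67 and 229 without number 2, and 210 and 516 without number 3. Pathway genes called numbered 0 with condition alone, 2 higher and 10 lower with the block, 1 and 6 in DESeq2 with the block, 2 and 15 with the block and no filter, and 1 to 2 and 3 to 15 with a number left out. Myeloid markers called lower numbered 0 with condition alone, 1 in DESeq2, 17 with the block, 13 in DESeq2 with the block, 19 with the block and no filter, and 11 to 18 with a number left out. Of the 3 left-out numbers, number 2 gave the fewest calls in all in each set.

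By replicate number, 5220 genes and 6 members were called, 3016 genes in DESeq2, and 1658 genes and 0 members without both samples numbered 3. Jak2, Cish, Socs2, Pim1 and Erfe were called under 14 of 14 alternatives with the samples numbered 3 kept in at least 1 group. Stat5a was called under 5 of these and Epor under 1, with a log2 difference of −0.21 to −0.05 for Epor. Stat5b, Socs3 and Sh2b3 were called under 0. The difference between numbers 3 and 1 was near 0 for Stat5b (−0.028 with library totals alone, −0.014 with no filter, −0.013 and −0.014 in limma, −0.032 to 0.067 with a sample left out) and for Sh2b3 (−0.030, −0.016, −0.020 and −0.022, and −0.042 to 0.073).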
